A study of Homo sapiens with 40 samples.

Results

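DAPK1, PKIB, MID1, ADRA2A, IL1RN, AMIGO2, CSMD1, MAN1A1 and SI are 9 genes, of 11853 analysed, that were selected because MDV3100 raised their transcripts more in control lines than in resistant clones of LNCaP prostate cancer cells. Each gene was read from its brightest probe set among those that the platform annotation pairs with that gene alone. All 9 passed the filter on low signal, which asks for a mean of at least 4.815 on the log2(signal + 16) scale over the arrays. The responses of clones and control lines and the difference between them therefore chose the genes, and they are given below as a description without a test. Tests are given for measures that the choice did not rest on directly, namely levels in DMSO, differences between the replicate sets and other genes of the same pathways. The DMSO arrays also enter the responses, so a DMSO level is not fully separate from the choice.

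The cells were LNCaP, a human prostate cancer line that depends on androgen, grown in medium with serum. Per the labels, the groups were 14 arrays of resistant clones given 10 µM MDV3100, 14 of resistant clones given 0.1% DMSO, 6 of control lines given 10 µM MDV3100 and 6 of control lines given 0.1% DMSO, each for 24 h and starting 3 days after seeding. The 7 clones, numbered 1, 9, 10, 14, 15, 19 and 24, are labelled insensitive to MDV3100, and each is a single clone. The 3 control lines are labelled sensitive. Their titles are D+E- (control 1), D+R- (control 2) and M+R- (control 3), and no label says what the titles stand for. Replicate 1 and replicate 2 arrays exist for every line under both treatments. A culture here means the MDV3100 and the DMSO array of the same line and replicate number, which gives 20 cultures. Tests take the line as the unit, as a mean, a difference or 1 set of its replicates, so a p-value rests on the spread between these 10 lines. The labels do not say that the replicates were grown separately, and the spread between them may be technical.

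MDV3100, also called enzalutamide, occupies the androgen receptor and keeps it from acting as a transcription factor. Genes that the receptor induces, such as those for prostate kallikreins, then fall, and genes that it represses rise. The 9 genes code for proteins of unlike kinds. DAPK1, PKIB and MID1 act on protein phosphorylation and its removal, ADRA2A and IL1RN belong to hormone and cytokine signalling, AMIGO2 and CSMD1 are cell surface proteins, and MAN1A1 and SI cut sugars.

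The cells carried the markers of their label, and the replicate sets stood apart. All 8 measured LNCaP identity genes passed the filter on low signal, with FOLH1 between 814.4 and 1469.8 on the 40 arrays. None of 6 leukocyte markers passed it, and their summed signal lay between 5.6 and 23.2 on MDV3100 arrays of clones, 6 and 17.1 on DMSO arrays of clones, 4 and 19.2 on MDV3100 arrays of control lines and 6.6 and 13.9 on DMSO arrays of control lines. With each gene centred over the 20 cultures, the profile of replicate 1 of a line correlated with that of replicate 2 at r = -0.72 to 0.10 across genes, median -0.45, and below 0 in 8 of the 10 lines. The replicate 2 culture labelled control 2 was most like clone 1 of replicate 1 (r = 0.75), and the replicate 2 culture labelled clone 1 was most like clone 19 of replicate 1 (r = 0.74). Control 3 of replicate 2 was also most like a clone of replicate 1, clone 15 (r = 0.63). Control 1 of replicate 2 was most like control 3 of replicate 1 (r = 0.51). The 2 replicates of clone 1 correlated at r = 0.09. Genes are not independent replicates, and whether any of these cultures carries the right label was not tested. Every group below is that of the labels. Values without the replicate 2 cultures of clone 1 and control 2, an alternative chosen after seeing the data, stand beside the results they move. Of 7 fibroblast markers 3 passed the filter, COL1A1 (up to 347.9), COL3A1 and PDGFRB, and the summed signal of the 7 lay between 96.6 and 214.8 on MDV3100 arrays of clones, 105.4 and 214.3 on their DMSO arrays, 155.1 and 372.7 on MDV3100 arrays of control lines and 145.1 and 237.8 on their DMSO arrays. Of 4 endothelial markers VWF alone passed (up to 126.2), and their sums lay between 17.1 and 65.7, 16 and 36.9, 17.6 and 95.4 and 18.4 and 134.6 on arrays of the same groups. By limma VWF fell in control lines (-0.43 ± 0.12, SE, adjusted p = 0.0309), and its difference between clones and control lines was 0.20 ± 0.14 (adjusted p = 0.521). The part of these markers in the results was not tested. The ratio of the 3′ to the 5′ actin probe sets, a sign of RNA length, had medians of 4.27 and 3.99 on MDV3100 and DMSO arrays of clones and 4.50 and 4.08 on those of control lines in replicate 1, against 3.04, 3.14, 3.41 and 3.36 in replicate 2. In control lines of replicate 1 the ratio ran from 4.26 to 6.59 on MDV3100 arrays and from 3.18 to 4.12 on DMSO arrays, without overlap. The treatments overlapped in control lines of replicate 2 and in clones of both sets. The part of this ratio in the responses and in the differences between the sets was not tested. Of 5 genes typical of androgen-independent prostate lines, VIM and S100A4 passed the filter, and CD44, CAV1 and AXL stayed at or under 20.8, 7.6 and 5.8. By limma VIM rose in clones (0.36 ± 0.07, SE, adjusted p = 0.0438), where 0.801% of all genes were called. In control lines it had -0.03 ± 0.11 (adjusted p = 0.915), and its difference between clones and control lines was 0.39 ± 0.14 (adjusted p = 0.199). The summed signal of the 5 lay between 52.8 and 732.7 on MDV3100 arrays of clones, 46 and 672.8 on their DMSO arrays, 52.3 and 125.2 on MDV3100 arrays of control lines and 56.9 and 110.6 on their DMSO arrays, and its part in the results was not tested.

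Levels are MAS5 signals on a linear scale, and a response is the log2 of MDV3100 signal plus 16 minus the log2 of DMSO signal plus 16 within a culture. The added 16 understates the change of dim genes, which matters most here for AMIGO2 and SI. It does the same on dim arrays of other genes, such as those of ADRA2A in controls 2 and 3 of replicate 2. In such bulk RNA, fewer cells with a transcript and less of it per cell cannot be told apart. On this scale, the mean response of the 9 genes over the 7 clones ran from -0.40 (DAPK1) to 0.66 (ADRA2A), and over the 3 control lines from 0.79 (DAPK1) to 1.46 (MID1). The median difference between clones and control lines was -0.99, against -0.002 over all genes, a gap that follows from the choice of genes. With the replicate 2 cultures of clone 1 and control 2 left out the median difference was -1.26. Orders among the 9 genes are those of this scale, and another added constant changes some of them.

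**Figure D1:**
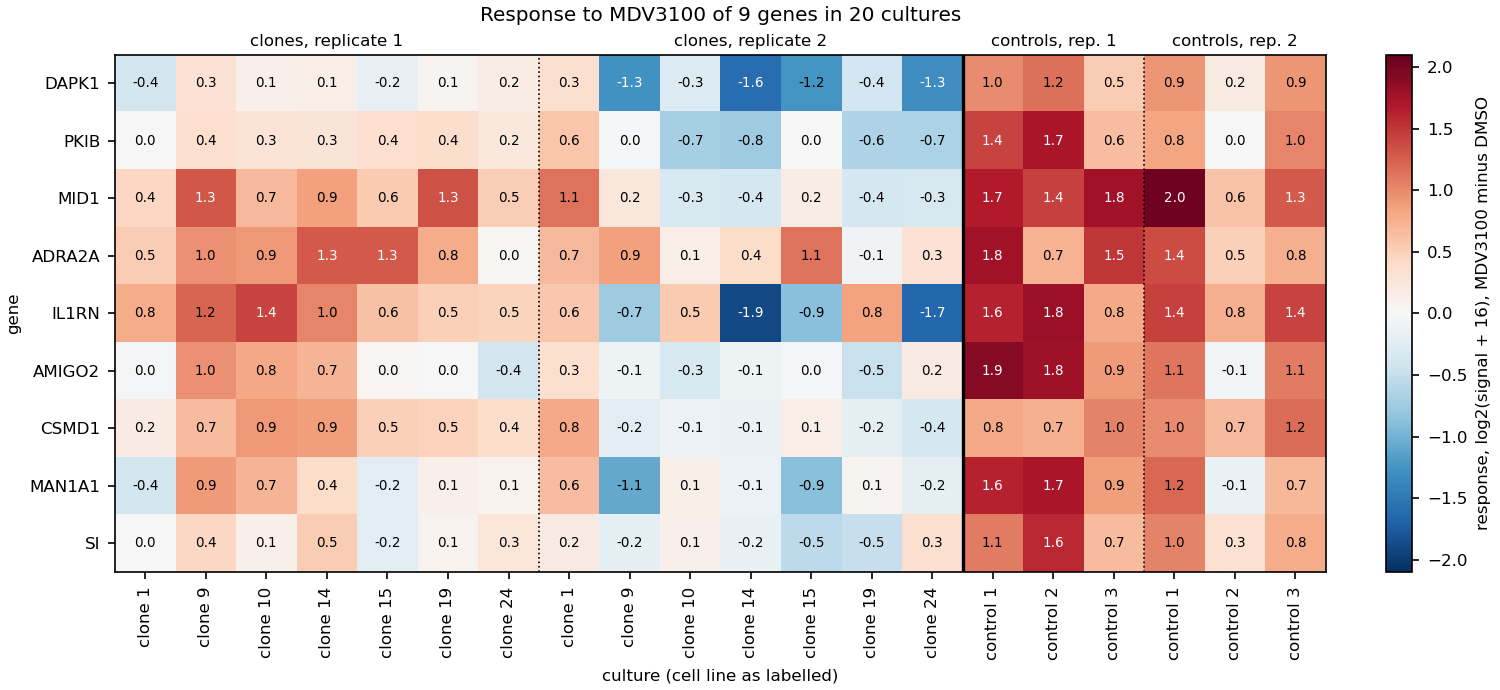
Response to MDV3100 of each of the 9 genes (rows) in each of the 20 cultures (columns), as the log2 difference of MDV3100 and DMSO signal plus 16, with values rounded to 1 decimal. Control lines other than control 2 of replicate 2 are red throughout, while the clones are mostly pale or red in replicate 1 and mostly pale or blue in replicate 2, apart from clone 1.

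DAPK1, a kinase regulated by calcium and calmodulin that is linked to cell death, was brighter on the drug array than on the DMSO array in all 6 cultures of control lines. Its signal on MDV3100 arrays of clones had a lowest, median and highest value of 93.4, 736.3 and 1436.4 in replicate 1, and 89.1, 811.3 and 1335.1 on the DMSO arrays of the same cultures. In replicate 2 these were 57, 112.7 and 582.2 with MDV3100 and 120.6, 204.9 and 522.1 with DMSO. Most clones were thus brighter in replicate 1, and in replicate 2 the drug arrays sat below the DMSO arrays in 6 of 7 clones. For controls 1, 2 and 3 the MDV3100 signals were 820, 212.8 and 595.2 in replicate 1, against 402.7, 86.7 and 406.9 in DMSO. Replicate 2 of the control lines had 370.3, 993.8 and 882.3 with MDV3100, against 186.1, 872.9 and 456.9 in DMSO.

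The DAPK1 response in replicate 1 was -0.38, 0.31, 0.10, 0.14, -0.17, 0.06 and 0.15 in clones 1, 9, 10, 14, 15, 19 and 24, and 1.00, 1.16 and 0.53 in controls 1, 2 and 3. In replicate 2 it was 0.33, -1.26, -0.28, -1.60, -1.25, -0.40 and -1.31 in the clones in the same order, and 0.93, 0.18 and 0.93 in the control lines. All 6 control responses were above 0, and 4 clones of replicate 2 were at -1.25 or lower. Clone 1 of replicate 2, at 0.33, and clone 9 of replicate 1, at 0.31, reached above the lowest control value, which was 0.18 in control 2 of replicate 2. Without the replicate 2 cultures of clone 1 and control 2 the clones ended at 0.31 and the control lines began at 0.53. Averaged over replicates, the response was -0.40 ± 0.30 (SD, n = 7 clones) and 0.79 ± 0.16 (SD, n = 3 control lines), a difference of -1.18 ± 0.16 (SE), or -1.40 without those 2 cultures.

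PKIB, which codes for an inhibitor of the cAMP-dependent protein kinase, had the narrowest range of clone responses in replicate 1. On MDV3100 arrays of clones its lowest, median and highest signals were 41.4, 100.7 and 192.4 in replicate 1, against 41.4, 83.8 and 147.4 in DMSO. Replicate 2 of the clones had 109.6, 183.9 and 415.4 with MDV3100 and 94.3, 298 and 658.1 with DMSO. In controls 1, 2 and 3 of replicate 1, signals of 583.4, 599.1 and 328.2 with MDV3100 stood against 208.3, 172.5 and 203.7 in DMSO, so the drug arrays of control lines lay above every array of clones in that set. In replicate 2 they were 254.8, 36.7 and 101.3 with MDV3100 and 135.8, 36.9 and 41.9 with DMSO, with controls 2 and 3 below every clone.

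Responses of PKIB in replicate 1 were 0.00, 0.35, 0.29, 0.28, 0.36, 0.37 and 0.22 in clones 1, 9, 10, 14, 15, 19 and 24, and 1.42, 1.71 and 0.65 in controls 1, 2 and 3, with no overlap of the groups. Replicate 2 gave 0.58, -0.04, -0.69, -0.75, 0.02, -0.64 and -0.66 in the clones and 0.84, -0.01 and 1.02 in the control lines. There the groups overlapped because control 2, at -0.01, lay below clone 15, at 0.02, and clone 1, at 0.58, and 4 of the other clones were at -0.64 or lower. The averages were -0.02 ± 0.22 (SD, n = 7 clones) and 0.94 ± 0.16 (SD, n = 3 control lines), and the difference of -0.96 ± 0.13 (SE) became -1.29 without the replicate 2 cultures of clone 1 and control 2. A dimmer PKIB probe set that passed the filter, at a mean signal of 72.5, averaged 0.36 in clones and 0.89 in control lines. Its difference was -0.53, and it followed the reported one at r = 0.52.

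A window of 250 bases before a start site of PKIB, at chr6:122652479-122652728 (GRCh38.p14, plus strand), is printed because it is 1 of the 2 windows among these genes that hold TGTTCT or its reverse complement AGAACA, the letters of an arm of a steroid hormone response element, and the other is that of SI further on. Capitals mark the match, 245 bases before the start. The sequence is from RefSeq, 5′ to 3′ on the strand of the gene.
PKIB: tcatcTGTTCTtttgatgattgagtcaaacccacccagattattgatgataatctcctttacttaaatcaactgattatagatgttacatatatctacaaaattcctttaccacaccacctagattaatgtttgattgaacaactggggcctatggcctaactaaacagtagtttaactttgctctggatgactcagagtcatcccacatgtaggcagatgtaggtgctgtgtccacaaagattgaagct
Of 35116 windows of this length, 12.4% hold a match on either strand, and so do 2 of the 17 windows found for 8 of the 9 genes. The match is a description of letters and not of a bound site.

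MID1, a microtubule-bound ubiquitin ligase that targets the catalytic subunit of protein phosphatase 2A, had the highest mean response in control lines and was above 0 in all 7 clones of replicate 1. Its MDV3100 signals in clones were 276.6, 939.7 and 1298.4 as lowest, median and highest in replicate 1, against 100, 636.4 and 805 in DMSO. Replicate 2 clones had 38.6, 65.5 and 302.9 with MDV3100 and 50.5, 56.4 and 129 with DMSO, so the 2 sets of clones hardly met. The control lines had 222.3, 391.6 and 295.6 with MDV3100 in replicate 1, against 59.3, 135 and 75.3 in DMSO. They had 164.4, 641.7 and 1111.3 with MDV3100 in replicate 2, against 27.9, 420.5 and 445.5 in DMSO, where controls 2 and 3 were far above control 1.

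Replicate 1 responses of MID1 were 0.44, 1.31, 0.68, 0.85, 0.55, 1.33 and 0.51 in clones 1, 9, 10, 14, 15, 19 and 24, and 1.66, 1.43 and 1.77 in controls 1, 2 and 3. Those of replicate 2 were 1.14, 0.24, -0.34, -0.37, 0.16, -0.36 and -0.33 in the clones and 2.04, 0.59 and 1.29 in the control lines. The groups did not overlap in replicate 1, where clone 19 at 1.33 lay just under control 2 at 1.43, and in replicate 2 clone 1 at 1.14 lay above control 2 at 0.59. The averages were 0.42 ± 0.28 (SD, n = 7 clones) and 1.46 ± 0.42 (SD, n = 3 control lines), and the difference was -1.05 ± 0.18 (SE), or -1.24 without the replicate 2 cultures of clone 1 and control 2. Another MID1 probe set gave a difference of -0.88 and followed the reported one at r = 0.95 over the cultures, while 1 more, at a mean signal of 53.5, gave -0.005 and r = -0.10.

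ADRA2A, the alpha-2A adrenergic receptor, which lowers cAMP through inhibitory G proteins, had the highest mean response in clones and the smallest difference between the groups. Signals of the clones with MDV3100 had a lowest, median and highest value of 30.4, 126.4 and 962.3 in replicate 1, against 16, 47.4 and 551.1 in DMSO. In replicate 2 they were 328.3, 514.9 and 1029.3 with MDV3100 and 248, 419.3 and 574.2 with DMSO. The control lines had 1193.2, 1511.8 and 687.3 with MDV3100 in replicate 1, against 340.7, 902 and 232.7 in DMSO, above most clones. In replicate 2 they had 742.7, 17.7 and 34.7 with MDV3100, against 278, 7.7 and 14 in DMSO, and controls 2 and 3 were the dimmest DMSO cultures of all.

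The receptor responded by 0.54, 0.96, 0.91, 1.29, 1.29, 0.79 and 0.03 in the clones of replicate 1, numbered as before, and by 1.76, 0.73 and 1.50 in controls 1, 2 and 3. In replicate 2 the values were 0.68, 0.86, 0.14, 0.38, 1.14, -0.08 and 0.31 in the clones and 1.37, 0.51 and 0.76 in the control lines. Clone 19 of replicate 2, at -0.08, was the single culture below 0. Of the 14 clone cultures, 9 lay within the range of the control lines, 0.51 to 1.76. The averages of 0.66 ± 0.36 (SD, n = 7 clones) and 1.10 ± 0.47 (SD, n = 3 control lines) differed by -0.44 ± 0.22 (SE), less than the SD of the control lines. The difference rested on single control lines, being -0.21 without control 1 and -0.69 without control 2, and it was -0.49 without the replicate 2 cultures of clone 1 and control 2.

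IL1RN, which codes for the secreted antagonist that blocks the interleukin-1 receptor, had the widest spread among clones. With MDV3100 its signals in clones were 255.4, 427.5 and 853.1 as lowest, median and highest in replicate 1, against 100.6, 190.4 and 599.3 in DMSO. The clones of replicate 2 had 89.8, 215.2 and 1412.2 with MDV3100 and 243.6, 378.5 and 952.2 with DMSO, and the highest of each was clone 1. In the control lines of replicate 1, signals of 1182.7, 776.9 and 800.1 with MDV3100 stood against 374.3, 213 and 454.8 in DMSO. Those of replicate 2 were 852.6, 470.7 and 796 with MDV3100 and 306.3, 269.4 and 289.3 with DMSO, a close group.

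In replicate 1 IL1RN responded by 0.78, 1.22, 1.41, 1.03, 0.62, 0.50 and 0.47 in clones 1, 9, 10, 14, 15, 19 and 24, and by 1.62, 1.79 and 0.79 in controls 1, 2 and 3. In replicate 2 it responded by 0.56, -0.74, 0.55, -1.90, -0.88, 0.84 and -1.65 in the clones and by 1.43, 0.77 and 1.41 in the control lines. All 7 clones of replicate 1 were above 0, and clones 9, 10 and 14 lay within the control range there, since control 3 was at 0.79. In replicate 2 clones 14 and 24 were at -1.90 and -1.65, the lowest responses of any member. The averages were 0.20 ± 0.60 (SD, n = 7 clones) and 1.30 ± 0.21 (SD, n = 3 control lines), a difference of -1.10 ± 0.29 (SE). Replicate 1 by itself gave -0.54, replicate 2 by itself -1.66, and the value was -1.26 without the replicate 2 cultures of clone 1 and control 2. Dimmer IL1RN probe sets that passed the filter gave differences of -0.48 and -0.59.

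AMIGO2, an adhesion protein of the cell surface with leucine-rich repeats, was dim in clones whatever the treatment. MDV3100 signals in clones had a lowest, median and highest value of 10, 14 and 32.6 in replicate 1, against 9, 11.6 and 21.3 in DMSO, and of 4.6, 10.7 and 18.7 in replicate 2, against 6.2, 11.9 and 20.8 in DMSO. The control lines of replicate 1 reached 126.3, 165.4 and 55.5 with MDV3100, against 21.7, 36.6 and 22.4 in DMSO. Those of replicate 2 had 45.8, 11 and 29.4 with MDV3100 and 12.3, 12.1 and 5.4 with DMSO. Under the drug controls 1 and 3 thus lay above every clone of their own set, and control 2 did so in replicate 1 alone.

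AMIGO2 responses were -0.03, 0.96, 0.82, 0.71, 0.03, -0.01 and -0.39 in clones 1, 9, 10, 14, 15, 19 and 24 of replicate 1, and 1.92, 1.79 and 0.90 in controls 1, 2 and 3. In replicate 2 they were 0.34, -0.11, -0.34, -0.11, -0.04, -0.46 and 0.18 in the clones, and 1.13, -0.06 and 1.09 in the control lines. Clones 9, 10 and 14 of replicate 1 stood apart from the other clones at 0.71 to 0.96, and clone 9 just passed control 3. The averages were 0.11 ± 0.24 (SD, n = 7 clones) and 1.13 ± 0.35 (SD, n = 3 control lines). Their difference of -1.02 ± 0.16 (SE) was -1.35 without the replicate 2 cultures of clone 1 and control 2, and depended on the added constant, being -1.47 with 1 and -0.57 with 64 in place of 16.

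CSMD1, a large membrane protein with complement-binding repeats, had DMSO signals between 245.9 and 341.8 in every culture except 6 clones of replicate 2, which were dimmer. On MDV3100 arrays its lowest, median and highest signals in clones were 386.2, 447.3 and 603.7 in replicate 1, against 248.8, 312 and 341.8 in DMSO. Replicate 2 had 106.4, 127.5 and 569.6 with MDV3100 and 95.4, 155.4 and 320.1 with DMSO, where clone 1 gave the highest value of each and the next were 164 and 179.5. Control lines had 506.1, 479 and 714.5 with MDV3100 in replicate 1, against 284.3, 279 and 339.5 in DMSO. They had 502.9, 503.6 and 658 with MDV3100 in replicate 2, against 245.9, 309.4 and 282.5 in DMSO, close to the other set.

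Its responses were 0.17, 0.67, 0.92, 0.88, 0.50, 0.48 and 0.37 in clones 1, 9, 10, 14, 15, 19 and 24 of replicate 1, and 0.80, 0.75 and 1.04 in controls 1, 2 and 3. They were 0.80, -0.22, -0.12, -0.14, 0.14, -0.18 and -0.37 in the clones of replicate 2, and 0.99, 0.68 and 1.18 in the control lines. In replicate 1 clones 10 and 14 lay within the control range. In replicate 2 clone 1, at 0.80, was within it and the other 6 clones were at 0.14 or lower. The averages were 0.28 ± 0.17 (SD, n = 7 clones) and 0.90 ± 0.20 (SD, n = 3 control lines), with a difference of -0.63 ± 0.11 (SE). The cultures of replicate 1 gave -0.29 by themselves, those of replicate 2 gave -0.96, and the difference was -0.68 without the replicate 2 cultures of clone 1 and control 2. Dimmer CSMD1 probe sets that passed the filter gave differences of -1.02, -0.28 and -0.16. Their mean signals were 226.0, 24.0 and 33.1, and they followed the reported one at r = 0.81, 0.73 and 0.36.

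MAN1A1 codes for a Golgi mannosidase that trims N-linked glycans. With MDV3100, clones had a lowest, median and highest signal of 22.7, 57.6 and 212.2 in replicate 1, against 34.5, 71.2 and 106.1 in DMSO, and 14.2, 23.7 and 47.3 in replicate 2, against 21, 29.1 and 56.9 in DMSO. In replicate 1 of the control lines, 250.8, 195.7 and 126.9 with MDV3100 stood against 71.5, 48.3 and 61.4 in DMSO. In replicate 2, 95.9, 38.5 and 61.9 with MDV3100 stood against 32.6, 43.7 and 32.2 in DMSO. Control 2 was the sole control line whose drug array was not the brighter, and this was in replicate 2.

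MAN1A1 responded by -0.38, 0.90, 0.71, 0.38, -0.24, 0.11 and 0.07 in clones 1, 9, 10, 14, 15, 19 and 24 of replicate 1, and by 1.61, 1.72 and 0.88 in controls 1, 2 and 3. Replicate 2 responses were 0.64, -1.07, 0.13, -0.12, -0.88, 0.06 and -0.21 in the clones, and 1.20, -0.13 and 0.69 in the control lines. As for AMIGO2, clones 9, 10 and 14 had the highest clone responses of replicate 1. Clone 9 was at 0.90 in replicate 1 and -1.07 in replicate 2, the widest gap between replicates of a clone for this gene. The averages were 0.01 ± 0.30 (SD, n = 7 clones) and 1.00 ± 0.35 (SD, n = 3 control lines), a difference of -0.99 ± 0.18 (SE), or -1.37 without the replicate 2 cultures of clone 1 and control 2. A dimmer MAN1A1 probe set gave -0.20.

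SI, sucrase-isomaltase, is known as a digestive enzyme of the intestinal brush border. Its signals with MDV3100 in clones had a lowest, median and highest value of 19.1, 47.7 and 91.9 in replicate 1, against 19.4, 31.8 and 63.7 in DMSO, and of 1.6, 5.9 and 19.5 in replicate 2, against 1.4, 7.3 and 19.1 in DMSO. The control lines had 60.7, 160.1 and 41.6 with MDV3100 in replicate 1, against 20, 43.1 and 20.3 in DMSO, and 38.8, 25.9 and 36.6 with MDV3100 in replicate 2, against 10.5, 17.6 and 14.6 in DMSO. Under the drug, all clones of replicate 2 but clone 1 were at 9.2 or lower, and all 7 were below every control line.

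SI responses were -0.01, 0.44, 0.10, 0.53, -0.22, 0.07 and 0.25 in clones 1, 9, 10, 14, 15, 19 and 24 of replicate 1, and 1.09, 1.58 and 0.67 in controls 1, 2 and 3. Replicate 2 gave 0.19, -0.21, 0.10, -0.16, -0.55, -0.48 and 0.33 in the clones, and 1.05, 0.32 and 0.78 in the control lines. Clones and control lines overlapped only through control 2 of replicate 2, at 0.32, below clone 14 at 0.53 and clone 9 at 0.44 of replicate 1 and clone 24 at 0.33 of replicate 2. The averages were 0.03 ± 0.24 (SD, n = 7 clones) and 0.91 ± 0.18 (SD, n = 3 control lines). The difference was -0.89 ± 0.14 (SE), with -1.38 and -0.46 for an added 1 and 64, and -1.11 without the replicate 2 cultures of clone 1 and control 2.

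The window of 250 bases before a start site of SI lies at chr3:165078497-165078746 (GRCh38.p14, minus strand). It is shown, again from RefSeq and 5′ to 3′ on the strand of the gene, for its match to TGTTCT in capitals, 232 bases before the start.
SI: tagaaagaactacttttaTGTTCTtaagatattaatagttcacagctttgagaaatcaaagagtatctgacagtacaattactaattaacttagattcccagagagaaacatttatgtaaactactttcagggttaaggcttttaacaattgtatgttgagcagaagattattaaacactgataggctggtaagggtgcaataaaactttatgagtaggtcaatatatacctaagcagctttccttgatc
The windows of PKIB and SI shown here have 37.6% and 31.6% G or C, against a median of 58.0% over all windows. No window searched for DAPK1, MID1, AMIGO2, MAN1A1, ADRA2A or IL1RN held these letters, which says nothing of sites elsewhere. The 9 genes lie on 8 chromosomes. MAN1A1 and PKIB share chromosome 6, with 3.12 Mb and 4 protein-coding genes between them. The others lie on chromosome 2 (IL1RN), 3 (SI), 8 (CSMD1), 9 (DAPK1), 10 (ADRA2A), 12 (AMIGO2) and X (MID1).

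**Figure D2:**
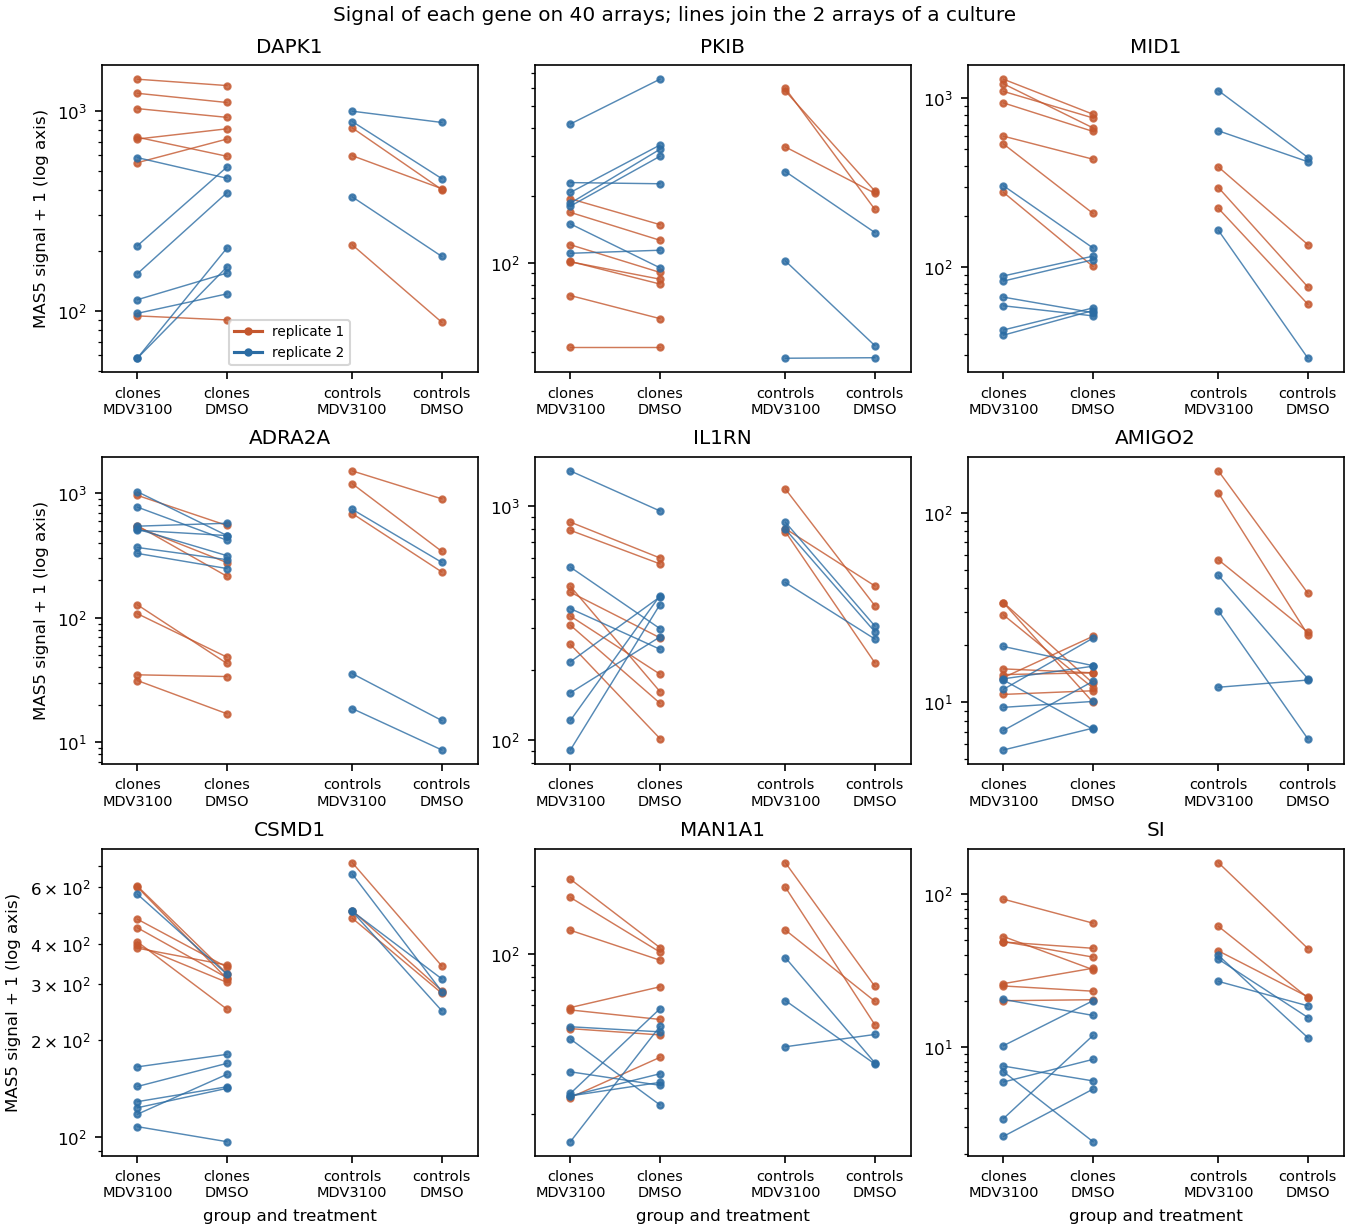
MAS5 signal plus 1 (log axis) of each gene on the 40 arrays, with clones left of control lines and MDV3100 left of DMSO, and lines joining the arrays of a culture. Lines of control cultures mostly slope down from MDV3100 to DMSO, and the replicate sets of clones (red for 1, blue for 2) mostly lie apart for MID1, CSMD1 and SI.

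The 9 genes moved together over the 20 cultures. Over all 36 pairs of genes, the correlation of responses had a median of r = 0.73 (range 0.33 to 0.92), and all 36 were above 0. The choice of genes bears on this value, since each was taken for a higher response in control lines than in clones. Over all pairs of the 11853 genes the median was r = 0.006, and 1.09% of pairs lay above 0.73. DAPK1 and IL1RN were the closest pair (r = 0.92), and MID1 with PKIB (0.88) and with CSMD1 (0.87), and AMIGO2 with SI (0.86), followed. ADRA2A was the loosest member. It correlated with the mean of the other 8 genes at r = 0.56, where the others did so at 0.77 (IL1RN) to 0.92 (DAPK1).

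Within the 14 cultures of clones, where no control line enters, the median over pairs was r = 0.59 (range -0.02 to 0.93), with 35 of 36 above 0, and 5.29% of all gene pairs lay above it. MID1 with PKIB (0.93) and DAPK1 with IL1RN (0.91) led here. The cultures of clones still differ by replicate set, and within a set the relation was looser. It had a median of 0.52 in the 7 clones of replicate 1, with 18.9% of all pairs higher, and 0.43 in those of replicate 2, with 21.2% higher. In the 6 control cultures it was 0.61, with 15.4% higher. Without the replicate 2 cultures of clone 1 and control 2 the median over pairs was 0.75 in the 18 other cultures and 0.60 in the 13 of clones, but -0.09 in the 6 remaining clones of replicate 2 and 0.07 in the 5 remaining control cultures. The relation within those 2 groups of cultures thus rested on clone 1 and control 2. What the cultures of a set share beyond a replicate number is not in the labels, and these r carry no p.

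**Figure D3:**
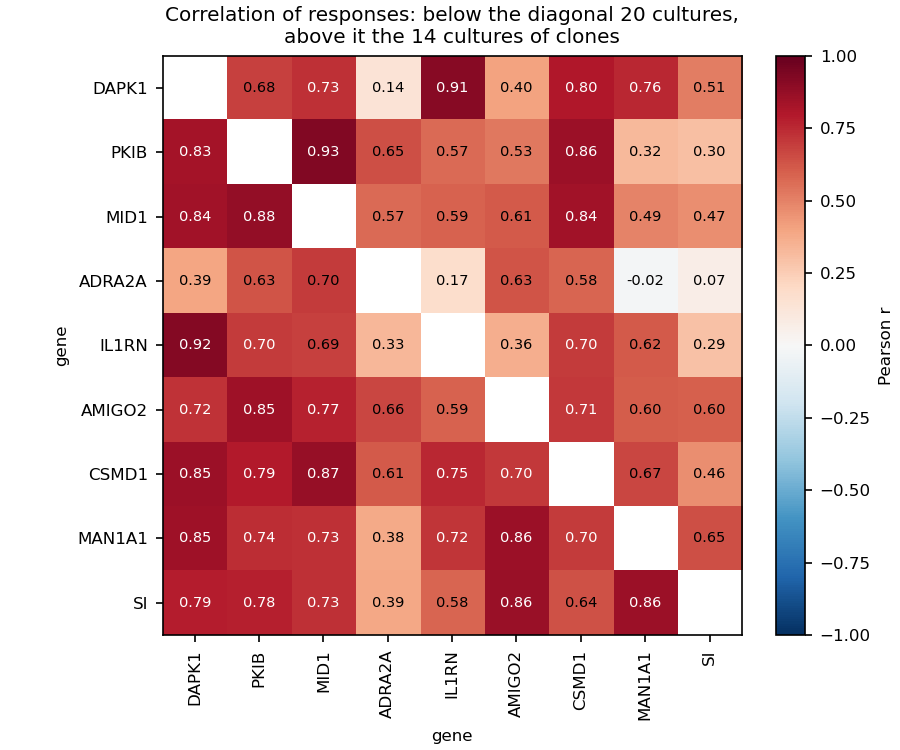
Pearson r of responses between each pair of the 9 genes, over all 20 cultures below the diagonal and over the 14 cultures of clones above it. ADRA2A has the palest row and column, and its r with MAN1A1 in clones is -0.02.

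The genes most like the mean of the 9 scaled responses over 20 cultures, of 11844 others, were TSHZ3 (r = 0.91), ATXN1 (0.91), TNFSF15 (0.90), ATXN7L1 (0.90) and POU2AF3 (0.90), followed by CYP1A2, COLEC12, CPNE3, PCED1B and MANEA at 0.88 to 0.89. TSHZ3 averaged 0.09 ± 0.09 in clones and 0.90 ± 0.14 in control lines (SE). CYP1A2, a drug-metabolising enzyme, averaged 1.07 ± 0.12 in clones and 1.97 ± 0.18 in control lines (SE), above 0 in both kinds of line. For 1 of the 9, DAPK1, the most like of all genes was another of the 9, IL1RN. For the others it was CYP1A2 (MID1), SLC38A9 (AMIGO2), MED13 (MAN1A1), ATXN1 (PKIB), TNFSF15 (SI), CLU (ADRA2A), SLC30A4 (IL1RN) and ARHGEF17 (CSMD1), at r of 0.84 to 0.95. These are the highest of all genes compared and are given as a description.

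Cultures with higher responses of the 9 genes had lower responses of androgen-induced genes. The mean response of 24 measured androgen-induced genes was -0.75, -0.85 and -0.71 in controls 1, 2 and 3 of replicate 1, where the mean of the 9 genes was 1.43, 1.41 and 0.97. In replicate 2 it was -0.87, -0.14 and -0.60, and the 9 genes averaged 1.22, 0.32 and 1.02. Control 2 of replicate 2 was thus the control culture nearest to 0 on both counts.

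Clones 9, 10 and 14 of replicate 1 had androgen-induced means of -0.77, -0.70 and -0.63, like the control lines, and the 9 genes averaged 0.79, 0.66 and 0.68 there. In clones 1, 15, 19 and 24 of that set the androgen-induced means were -0.12, -0.31, -0.07 and -0.14, and those of the 9 genes 0.12, 0.30, 0.41 and 0.19. In replicate 2 clone 1 had -0.18 and 0.58, and clones 9, 10, 14, 15, 19 and 24 had androgen-induced means of 0.00, 0.12, 0.05, -0.04, 0.09 and 0.09, with means of the 9 genes of -0.28, -0.10, -0.53, -0.24, -0.19 and -0.41. These 6 cultures were the only ones of the 20 in which the 9 genes averaged below 0.

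The scaled mean of the 9 genes correlated with the androgen-induced mean at r = -0.93 over 20 cultures, -0.87 over the 14 of clones and -0.94 over the 6 of control lines. Within the clones it was -0.90 in replicate 1 and -0.81 in replicate 2. With 6 androgen-repressed genes it was 0.86 over 20 cultures and 0.84 over clones, but 0.06 over control lines and 0.21 in clones of replicate 1. With KLK2, a kallikrein induced by androgen, it was -0.75 over 20 cultures, -0.93 in clones of replicate 1 and 0.10 in those of replicate 2. Without the replicate 2 cultures of clone 1 and control 2, r with the androgen-induced mean was -0.94 over 18 cultures and -0.91 over 13 of clones, but -0.64 over 5 of control lines and -0.09 over 6 clones of replicate 2. With the androgen-repressed genes it was then 0.88, 0.82, -0.49 and -0.57, and with KLK2 -0.78, -0.72, -0.63 and 0.86. The points share their arrays and their replicate set, and the genes were chosen on some of the same differences.

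**Figure D4:**
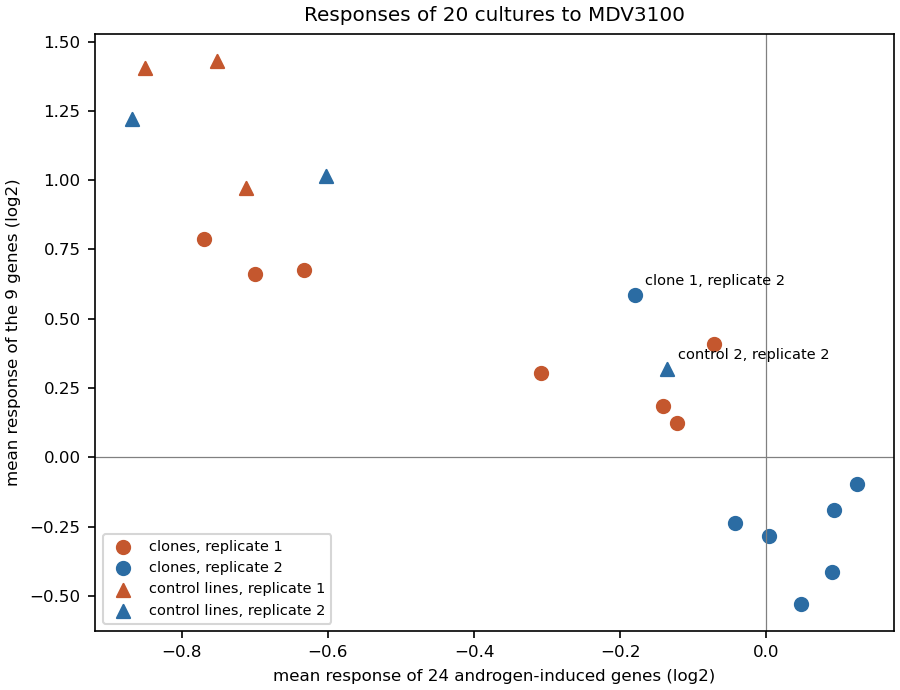
Mean response of the 9 genes (vertical) against the mean response of 24 androgen-induced genes (horizontal), both log2, in 20 cultures, with circles for clones, triangles for control lines, red for replicate 1 and blue for replicate 2. The points run from control lines at the upper left to 6 replicate 2 clones at the lower right, with clone 1 and control 2 of replicate 2 between them.

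Clones responded more in replicate 1 than in replicate 2 for all 9 genes, but no difference passed the test. The difference, replicate 1 minus replicate 2 over 7 clones, ran from 0.27 ± 0.16 (SE) for SI to 1.32 ± 0.32 for IL1RN. By limma adjusted p, 0 of 9 were called (adjusted p from 0.133 to 0.664, with 6 at an unadjusted p under 0.05), against 0.0844% of all genes, and 52.9% of all genes were positive in it. Of all 11853 genes, 1134 were at an unadjusted p under 0.05 in it. DAPK1 averaged 0.03 ± 0.23 in replicate 1 and -0.82 ± 0.71 in replicate 2 (SD, n = 7 clones), and PKIB averaged 0.27 ± 0.13 in replicate 1 and -0.31 ± 0.51 in replicate 2. Without clone 1, the sole clone with higher responses in replicate 2 for most of the genes, DAPK1, MID1 and CSMD1 were called, and without clone 1 and control 2 so was PKIB. The share of all genes called in these refits is not given here, so these calls cannot be set against it. In control lines 8 of the 9 differences were positive and 0 were called, and the share of all genes called was 0%. At an unadjusted p under 0.05 there were 1 of the 9 and 1314 of all 11853 genes. Whether clones and control lines differ in this change of response between replicates was not tested.

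DMSO levels of the 9 genes did not separate clones from control lines over both sets, and within the sets some did so in opposite directions. With replicates averaged, the difference ran from -0.34 ± 0.14 (SE) for CSMD1 to 0.48 ± 0.42 for MID1, and 0 of 9 were called by limma (adjusted p from 0.178 to 0.968, with 1 at an unadjusted p under 0.05), against 0.118% of all genes. Of all 11853 genes, 2880 were at an unadjusted p under 0.05 in this averaged comparison. In replicate 1 alone 3 of the 9 were called, against 6.12% of all genes. MID1 was higher in clones by 2.13 ± 0.56 (SE, limma adjusted p = 0.0492), while PKIB, at -1.08 ± 0.27 (adjusted p = 0.0443), and AMIGO2, at -0.57 ± 0.14 (adjusted p = 0.039), were lower in clones. In replicate 2 alone 2 were called, against 10.3% of all genes, and both were higher in clones, PKIB by 1.76 ± 0.51 (limma adjusted p = 0.0497) and ADRA2A by 2.74 ± 0.61 (adjusted p = 0.0285). Without clone 1 and control 2 of that set, PKIB (1.69 ± 0.52, SE, limma adjusted p = 0.0492), ADRA2A (2.12 ± 0.66, adjusted p = 0.0491) and CSMD1 (-0.80 ± 0.20, adjusted p = 0.0246) were called, against 18.6% of all genes. PKIB was therefore lower in clones in 1 set and higher in the other.

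The change of this difference between the sets was tested after these values were seen. Replicate 1 minus replicate 2, it was 3.30 ± 0.79 (SE) for MID1 (limma adjusted p = 0.0205), -2.84 ± 0.51 for PKIB (adjusted p = 0.00918), -4.69 ± 1.01 for ADRA2A (adjusted p = 0.0143) and -0.66 ± 0.18 for AMIGO2 (adjusted p = 0.0286). The other 5 were not called, and 18.1% of all genes were. These calls rest on few control lines, since without control 2 or without control 3 none of the 9 was called, and without clone 1 and control 2 together PKIB and ADRA2A were. The share of all genes called without these lines is not given here.

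Within the clones, 6 of the 9 DMSO levels differed between replicate 1 and replicate 2 by limma, where 48.8% of all genes did. MID1 (2.27 ± 0.43, SE, adjusted p = 0.00159), SI (1.04 ± 0.21), CSMD1 (0.87 ± 0.15, adjusted p = 0.000787) and MAN1A1 (0.72 ± 0.17) were higher in replicate 1. PKIB (-1.40 ± 0.28) and ADRA2A (-1.83 ± 0.56, adjusted p = 0.018) were lower in replicate 1. The ADRA2A call was lost without clone 15 or without clone 24. In the control lines 1 of the 9 was called, AMIGO2 at 0.72 ± 0.15 (SE, limma adjusted p = 0.0486), against 1.21% of all genes, and it was lost without control 2 or 3 and without clone 9, 10, 14, 15 or 24. The DMSO levels of PKIB and ADRA2A in clones thus shifted between the sets in the direction opposite to those of MID1, SI, CSMD1 and MAN1A1.

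**Figure D5:**
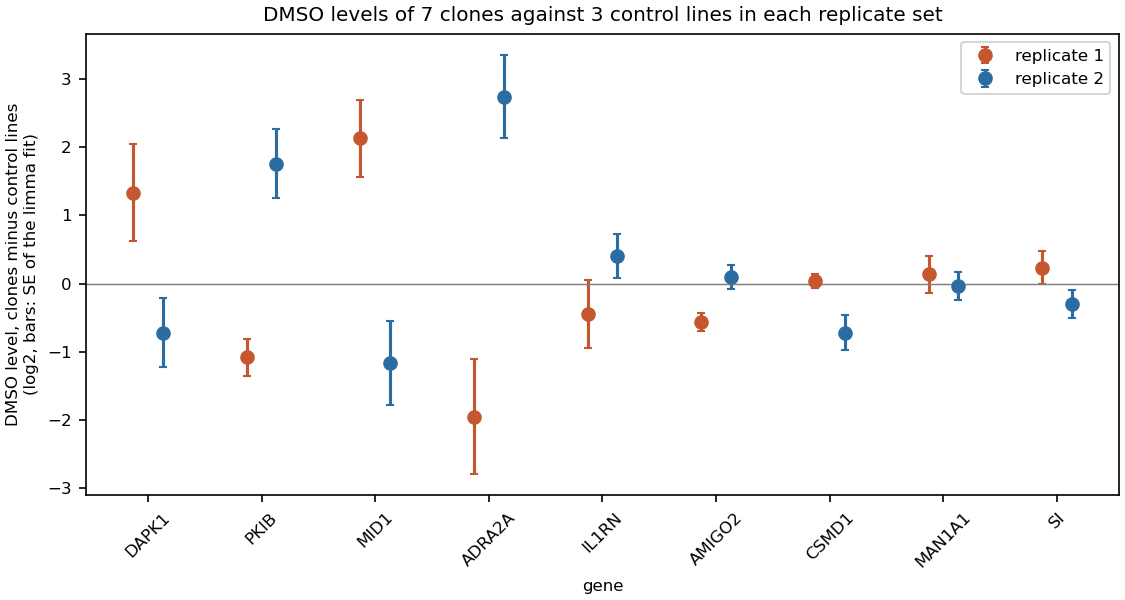
Difference of DMSO levels between 7 clones and 3 control lines (log2, clones minus control lines) for each gene, in replicate 1 (red) and replicate 2 (blue), with bars for the SE of the limma fit. MID1 is above 0 in replicate 1 and below in replicate 2, and PKIB and ADRA2A the reverse.

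Relatives and pathway partners of the 9 genes were compared in the same fits. Of 20 measured paralogs or family members, of 44 listed, 2 rose in control lines by limma, where 10.1% of all genes were called and 5.07% rose, and these were ADRA1A by 0.66 ± 0.13 (SE, adjusted p = 0.00726) and GANC, a glucosidase, by 0.36 ± 0.09 (adjusted p = 0.022). By limma, 0 of the 20 were called in clones and 0 in the difference between clones and control lines, where 0.801% and 0.717% of all genes were called. At an unadjusted p under 0.05 there were 2 and 3 of the 20, and 1820 and 1747 of all 11853 genes. The median difference of the 20 was -0.10. PKIG, an inhibitor like PKIB, had 0.05 ± 0.06 in clones and 0.25 ± 0.10 in control lines (SE). MAN1A2, MAN1C1 and MAN1B1, the other mannosidases of the family, had -0.10, 0.05 and -0.03 in clones and -0.07, 0.19 and 0.06 in control lines.

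Among 21 measured genes of protein kinase A signalling, the pathway that PKIB inhibits and ADRA2A damps, 4 rose in control lines by limma and none fell, where 10.1% of all genes were called and 5.07% rose. They were PRKAR1B, a regulatory subunit of the kinase, at 0.60 ± 0.08 (SE, adjusted p = 0.000987), PRKAR2B, another, at 0.35 ± 0.08 (adjusted p = 0.0126), the adenylate cyclase gene ADCY7 at 0.54 ± 0.11 (adjusted p = 0.00713) and the inhibitory G protein gene GNAI2 at 0.53 ± 0.10 (adjusted p = 0.00604). In clones these 4 averaged 0.09, 0.12, 0.10 and 0.06, and 0 of the 21 genes were called there by limma. At an unadjusted p under 0.05 in clones there were 3 of the 21, and 1820 of all 11853 genes. PRKAR1B alone was called in the difference, at -0.51 ± 0.10 (SE, adjusted p = 0.0339), and this call was lost in either replicate set alone, without any 1 of the control lines, and without clone 10, 15, 19 or 24.

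No gene was called in the 14 measured genes of N-glycan trimming and branching, in the 7 of interleukin-1 signalling or in the 6 of MID1 and protein phosphatase 2A, in control lines, clones or their difference by limma. At an unadjusted p under 0.05 there were 2, 1 and 1 genes of the first list in control lines, clones and the difference, 2, 2 and 1 of the second and 1, 0 and 0 of the third. Of all 11853 genes there were 3108, 1820 and 1747. IL1R1 and IL1RAP, the chains of the receptor that IL1RN blocks, had -0.04 ± 0.06 and -0.35 ± 0.09 in clones and -0.23 ± 0.10 and -0.14 ± 0.14 in control lines (SE). Of all 63 measured relatives and partners, 6 were called in control lines, 0 in clones (8 at an unadjusted p under 0.05) and 1 in the difference. Of all genes 10.1%, 0.801% and 0.717% were called in these. The median difference of the 63 was -0.07, against -0.002 over all genes and -0.99 over the 9 genes. The 9 genes were chosen by this difference, so their distance from the 63 follows from the choice.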

How the data were processed

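The authors deposited a linear intensity for each probe set on each array, and the submitters' processing notes name MAS5, without a version. With the highest and lowest 2% of values left out, every array had a mean between 150.01 and 150.02, so the values had been scaled and were not normalized again. The number of arrays limits the precision.

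Groups came from titles and labels, and 0 columns were unmapped. Signals were converted to log2(signal + 16), and probe sets with a mean of at least 4.815, the median, were kept (27338 of 54675). Gene names came from the platform annotation, where 41097 probe sets had 1 gene, with the brightest probe set for each gene. Line means over replicates entered limma 3.58.1 in R 4.3.3, on 7 clones and 3 control lines that share 1 estimate of the spread, with Benjamini-Hochberg adjustment over 11853 genes and a call at adjusted p under 0.05. Tests on the replicate sets used the difference of replicates per line or a set alone. The fits were tested on simulated data.

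The members, lists and tests were chosen with earlier results of these data known. Named genes are the 9 members, the genes most like their mean or nearest to each, relatives and pathway genes called in a comparison, and receptors or paralogs of a member. The marker genes and KLK2 were named beside them after their values were seen. Of the 168 list genes, 64 were not analysed here. Replicate numbers pair the arrays of a line, since its shift between replicates in DMSO correlated with that in MDV3100 at r = 0.59 to 0.90 across genes in all 10 lines. Alternatives were other added constants, no filter, quantile normalization, an intensity trend, the mean of a gene's probe sets, each set alone, line as a random block and each line left out. Promoter windows and positions came from RefSeq (GRCh38.p14).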

Additional observations from a re-analysis of the deposited data

Results flagged for a closer look

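MID1 in clone 1 of replicate 2 had a response of 1.14, far from the other 6 clones of that set, the nearest of which was at 0.24 and the lowest at -0.37. PKIB in clone 1 of replicate 1 had a response of 0.00, with equal signals on both arrays, while the nearest of the other 6 clones was at 0.22 and the highest at 0.37. Among 54 groups of cultures examined for a value far from the rest there were 2, where chance gives about 2.7. PRKAR1B differed between clones and control lines in its response, at -0.51 by limma's test of the difference itself, and it is not one of the 9 genes. That call was lost in 13 of 19 alternatives, among them each control line left out and either replicate set alone.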

How the results depend on the processing

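No difference of responses of a member changed direction under the alternatives run. The members were chosen for the direction of this difference on the same arrays, so a kept direction is no separate support. The DMSO differences, clones minus control lines, had opposite signs in replicates 1 and 2 for all 9 members. Among them were PKIB (0.34 over both sets, -1.08 and 1.76), ADRA2A (0.39, -1.95 and 2.74) and MID1 (0.48, 2.13 and -1.17). Some of these signs lay within the SE, such as those of MAN1A1 (0.13 ± 0.27 and -0.04 ± 0.21). Of all genes, 55% were positive in this difference in replicate 1 and 44.4% in replicate 2. The share of all genes with opposite signs is not given here, so the count of 9 cannot be set against it. By limma 4 of the 9 were called in the change between the sets, against 18.1% of all genes. The median difference of the 9 responses moved from -0.99 to -0.64 with an added constant of 64, and the median correlation between members stayed between 0.68 and 0.76. With line as a random block over single cultures, a replicate block, 0 members were called in the DMSO difference. In the difference of responses 1 of the 63 relatives and partners was called, and both counts were as without it. List genes in this section are those 63 genes. The androgen lists are not counted among them. By limma 5 of 24 androgen-induced genes (higher in clones) and 2 of 6 androgen-repressed genes (lower) were called in the difference of responses, against 0.717% of all genes.

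Leaving out 1 line at a time gave 0 to 1 members called in the DMSO difference (CSMD1 without clone 1), 0 to 3 in the clones' replicate difference of response, 0 to 2 in that of control lines (AMIGO2 and PKIB without control 3), 0 to 2 in the control lines' DMSO levels, 0 to 5 in the change of the DMSO difference between sets and 0 to 1 list genes. For refits with lines left out, the shares of all genes called are not given. Replicate 1 alone called 3 members in the DMSO difference (6.12% of all genes) and replicate 2 alone 2 (10.3% of all genes). The call of AMIGO2 in the control lines' DMSO levels became 0 with an added 1 or 64 or with an intensity trend. The 1 list gene, PRKAR1B, became 0 with an added 1, no filter, an intensity trend or either set alone. Alternatives chosen after seeing the data left out the replicate 2 cultures of clone 1 and control 2, which gave 0 list genes, or both lines, which gave 4 members in the clones' replicate difference of response, 0 in the control lines' DMSO levels and 2 in the change between sets. The cause was not tested. Members near the floor of the signal, AMIGO2 and SI, are the least certain in size.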
